A study of Mus musculus with 6 samples.

Results

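The genes described here are the 7 receptors and enzymes on the route by which the peptide PEPITEM restrains lymphocyte traffic: the adiponectin receptors Adipor1 and Adipor2, the sphingosine kinases Sphk1 and Sphk2, the sphingosine-1-phosphate (S1P) receptors S1pr1 and S1pr4, and the S1P lyase Sgpl1. They were chosen by symbol from the 20394 genes of a table of unique molecular identifier (UMI) counts, in which each UMI stands for 1 captured RNA molecule, and all 7 were found. The cells were CD45+ cells sorted from digested knee joints of male C57BL/6 mice with antigen-induced arthritis, which had been bought at 8 weeks of age and housed before the experiment. All mice had been immunized under the skin with 10 μg methylated bovine serum albumin in complete Freund's adjuvant and challenged in the knee with 100 μg of the same protein on day 21. From that day, the mice of 2 samples received vehicle (PBS) and those of 4 samples 300 μg PEPITEM, both into the peritoneum, and the joints were taken 3 days after the challenge. The table pools the 32953 cells of the 6 samples. Its barcodes end in a library number from 1 to 6, and no source used here ties a number to a sample. PBS and PEPITEM were therefore not compared and no test was run. A level is given over all cells of a class, and 3 CPM values beside it are those of the lowest, the median and the highest barcode library with at least 20 cells of the class.

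Adiponectin is a hormone of fat tissue that acts through the receptors AdipoR1 and AdipoR2. On B cells, these receptors license the release of PEPITEM, which is cut from the protein 14-3-3 zeta (Ywhaz). PEPITEM binds cadherin-15 (Cdh15) on endothelial cells, where a sphingosine kinase then makes S1P, which is exported and acts on S1P receptors of T cells to limit their passage into tissue. Inside cells, S1P is made by the kinases Sphk1 and Sphk2, returned to sphingosine by phosphatases, and destroyed for good by the lyase Sgpl1. S1pr1 is also the receptor by which lymphocytes follow S1P out of lymphoid organs into blood.

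Each cell was placed in a broad class when at least 3 of its 5 or 6 defining genes had a UMI (at least 4 for fibroblasts). Within these, 11 finer classes were cut with fewer genes. A UMI of Foxp3 sufficed for regulatory T, Cd4 for conventional Cd4 T, Cd8a or Cd8b1 for Cd8 T and Trdc for gamma-delta T-like cells. Likewise, Rag1 or Rag2 sufficed for small pre-B and Ms4a1 for Ms4a1 B-like cells. Most finer classes also excluded cells with a UMI of other marker genes. The classes are called "X-like" because they rest on these transcripts alone. None of the 7 genes was used to define a class. Of the cells, 23586 (71.6%) met the genes of 1 broad class, 8271 (25.1%) met those of several broad classes and were left out as mixed, and 1096 (3.33%) met none. Over the classes shown, all 82 further marker genes that had not been used were higher in their class than in the other cells. Like the class genes, they were chosen with earlier results of these data known, so this is no independent check of the class names. Doublets were removed according to the study's methods, and whether mixed cells are doublets was not tested. The mixed cells held 43.2% of all UMIs and were deeper, with a median of 22865 UMIs per cell against 8360. The libraries held 2919 to 9345 cells and 47273569 to 123367661 UMIs, and 138 barcode sequences (276 cells) occurred in more than 1 library. Endothelial cells, on which the route turns, were close to absent after the CD45 sort (6 cells), and the 74 fibroblast-like cells had 8.68 CPM of Ptprc, which encodes CD45, against 169 CPM or more in the other 22 classes. Neutrophil-like cells numbered 301 to 3891 per library, and with no library tied to a sample the makeup was not compared. Levels are UMIs of a gene per 1000000 UMIs of the class (CPM) with a 95% exact Poisson interval, and shares of positive cells are also given with each cell thinned to 2000 UMIs. Both cover counting error only.

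Adipor1, Adipor2 and Sgpl1 were present at 20 CPM or more in all 23 classes with at least 50 cells, while S1pr1 and S1pr4 reached this level in 10 classes each and Sphk1 and Sphk2 in 1 class each. In pooled CPM, each gene was highest in a different population, except Adipor1 and Sphk2, which were both highest in late neutrophil-like cells. In UMIs of the gene per cell, only Sphk1 kept its highest class, and the classes differ in depth. The map of the 7 genes over the classes shows the patterns in CPM, which are taken up by role in what follows.

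**Figure D1:**
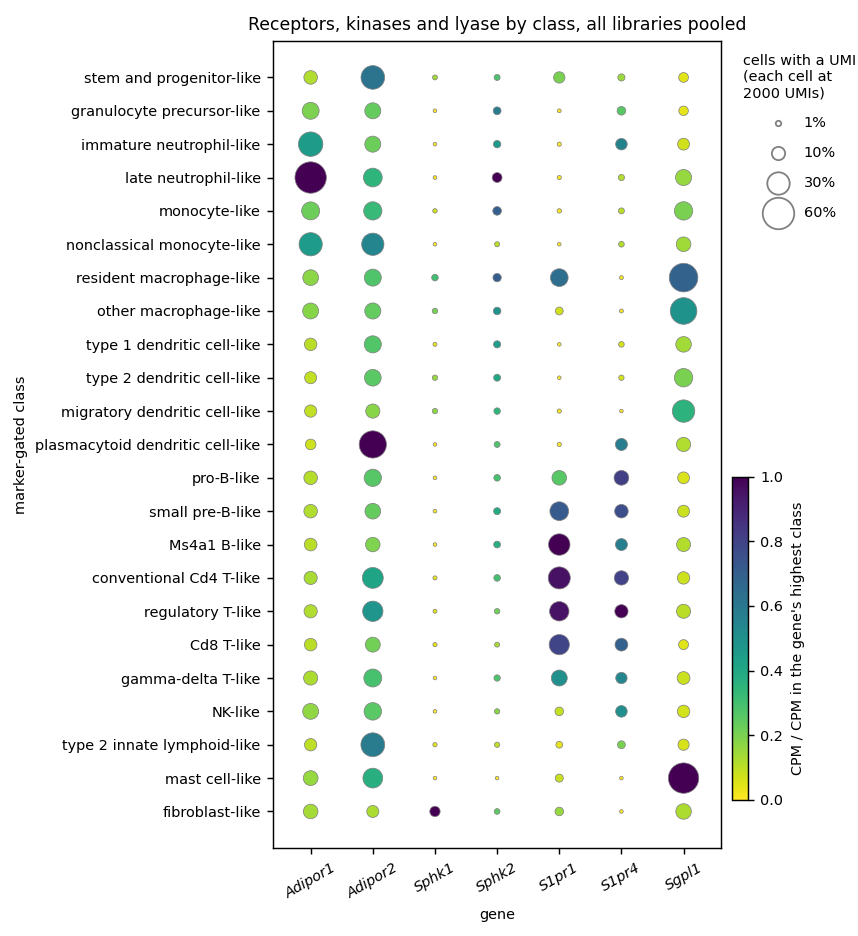
Level of each of the 7 genes (columns) in the 23 marker-gated classes (rows), all libraries pooled. Color is the CPM divided by the CPM in the gene's highest class, and dot area is the share of cells with a UMI when each cell is thinned to 2000 UMIs, from 0 to 59.7% (Adipor1 in late neutrophil-like cells).

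The windows before the start sites of these genes differed in CpG content. RefSeq gave windows for 6 of the 7 genes, S1pr1 being the exception. The 250 bases before the start are shown for the 3 windows that lie outside the annotated gene (GRCm38.p6, 5′ to 3′, CpG dinucleotides in capitals), because these genes differed between neutrophil stages in the results that follow.
Adipor1 (chr1:134415128-134415377, plus strand): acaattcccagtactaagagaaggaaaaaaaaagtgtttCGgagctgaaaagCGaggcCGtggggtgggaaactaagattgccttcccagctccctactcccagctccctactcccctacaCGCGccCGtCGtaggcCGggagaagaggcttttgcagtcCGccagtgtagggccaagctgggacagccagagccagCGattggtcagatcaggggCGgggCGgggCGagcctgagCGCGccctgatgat
Sphk2 (chr7:45718003-45718252, minus strand): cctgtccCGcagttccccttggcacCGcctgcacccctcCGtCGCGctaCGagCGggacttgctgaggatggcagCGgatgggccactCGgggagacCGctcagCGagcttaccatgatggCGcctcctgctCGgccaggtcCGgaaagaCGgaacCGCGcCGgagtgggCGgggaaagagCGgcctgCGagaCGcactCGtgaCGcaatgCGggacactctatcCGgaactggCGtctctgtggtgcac
S1pr4 (chr10:81500138-81500387, minus strand): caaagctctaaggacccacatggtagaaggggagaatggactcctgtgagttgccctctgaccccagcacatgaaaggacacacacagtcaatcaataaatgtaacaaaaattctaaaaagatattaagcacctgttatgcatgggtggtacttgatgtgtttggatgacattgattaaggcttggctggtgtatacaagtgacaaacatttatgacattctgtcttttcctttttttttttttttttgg
The Adipor1 window shown holds 15 CpG dinucleotides and that of Sphk2 27, whereas that of S1pr4 holds none. Among all 32851 windows of the table the median was 6, and 27.3% held at least 15, 8.56% at least 27 and 7.87% held none. In windows that overlap the gene, Adipor2 had 27, Sgpl1 31, a second Adipor1 window 33 and a second Sphk2 window 20. The 5 Sphk1 windows had between 4 and 19. No link with the breadth of expression is read from this, since Sphk1, at 20 CPM in 1 class, had windows on both sides of the median. This describes 6 genes and was not tested.

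Adipor1 (chromosome 1, 134415378 to 134433351, plus strand; GRCm38), an adiponectin receptor coupled to AMP kinase, was highest in neutrophils. Its level was 463 CPM in late neutrophil-like cells (interval 453 to 472, 9220 UMIs in 3923 cells), with 425, 459.6 and 497 CPM in the lowest, median and highest library. Of these cells 84.8% had an Adipor1 UMI at a median depth of 4607 UMIs, and 59.7% after thinning. Nonclassical monocyte-like cells (210.2 CPM, 101 cells, above monocyte-like cells in 2 of 2 libraries) and immature neutrophil-like cells (209.6 CPM, 194, 205 and 258 CPM) followed and could not be ordered, since their ranges overlapped. Monocyte-like cells came next with 105 CPM (80.7, 106 and 118 CPM). They were below the immature neutrophil-like cells in 6 of 6 libraries without overlap and above granulocyte precursor-like cells in 4 of 4. For these pairs the share of all genes was not computed. Per cell, Adipor1 was 1.71 UMIs in monocyte-like, 3.19 in immature neutrophil-like and 2.92 in granulocyte precursor-like cells. On that scale, monocyte-like cells were thus below the deeper precursors (median 15282.5 against 31069 UMIs). The remaining classes lay close together, through resident macrophage-like cells (80.4 CPM) and NK-like cells (77.6 CPM) to plasmacytoid dendritic cell-like cells (35.2 CPM). The other 6 of the 8 neighboring pairs that shared at least 4 libraries overlapped. With mixed cells assigned to their closest class, late neutrophil-like cells were still highest, at 308 CPM.

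In B lineage-like cells, the cells from which adiponectin calls forth PEPITEM, Adipor1 was flat in CPM across maturation. It was 52.0 CPM in pro-B-like, 54.4 CPM in small pre-B-like and 48.0 CPM in Ms4a1 B-like cells (B lineage cells with Ms4a1, which encodes CD20, and without pro-B genes). The library values of the last were 43.5, 47.8 and 52.2 CPM, and all 3 stages overlapped. Per cell, Adipor1 was not flat, with 0.664, 0.289 and 0.297 UMIs over the stages. Pro-B-like cells were deeper (median 8775 against 5040 and 5591.5 UMIs). Ms4a1 B-like cells ranked 19 of 23 classes for Adipor1. The share of Ms4a1 B-like cells with an Adipor1 UMI was 23.1% and 9.04% after thinning, against 59.7% in late neutrophil-like cells at the same depth. Of all Adipor1 UMIs in the table, 39.9% lay in neutrophil-like cells, 41.3% in mixed cells and 2.84% in B lineage-like cells. These groups made up 30.8%, 25.1% and 16.9% of the cells, and mixed cells held 43.2% of all UMIs. Shares of cells do not account for depth. The levels, which do, were 271 CPM in neutrophil-like and 49.1 CPM in B lineage-like cells, against 145 CPM over all cells.

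Adipor2 (chromosome 6, 119353150 to 119417704, minus strand), the paralog linked to PPARα signaling and membrane lipid balance, had another peak. It was highest in plasmacytoid dendritic cell-like cells, the main producers of type I interferon, with 349.9 CPM (interval 327 to 374, 203 cells) and 287, 331 and 402 CPM in the 3 libraries with at least 20 such cells. In these cells 87.7% were positive (44.7% after thinning), and a further 281 cells left out because they also met the type 2 dendritic cell genes had 339 CPM. Plasmacytoid dendritic cell-like cells were thus first of 23 classes for Adipor2 and last for Adipor1. Stem and progenitor-like cells (217 CPM), type 2 innate lymphoid-like cells (205 CPM) and nonclassical monocyte-like cells (191 CPM) followed, each seen in at most 3 libraries with 20 cells.

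Among lymphocytes, Adipor2 differed between T cell subsets. Conventional Cd4 T-like cells had 145 CPM (94.99, 147 and 176 CPM, 5 libraries) and Cd8 T-like cells 75.1 CPM (55.9, 79.9 and 89.1 CPM). Cd8 T-like cells were lower in 5 of 5 shared libraries without overlap, a 1.93-fold difference. Adipor2 was the only member of the 5 at 10 CPM or more to do so in this pair, in which 4.96% of all genes were lower by the same rule. Regulatory T-like cells were at 167 CPM, with 125 and 174 CPM in their 2 libraries, and overlapped with the conventional Cd4 cells. T-like cells as a whole exceeded B lineage-like cells (118 against 79.2 CPM, 6 of 6 libraries, library ranges 93.7 to 131 and 70.9 to 82.2 CPM), where 16.9% of all genes were higher and Adipor2 was 1 of 5 members. Within the B lineage, Adipor2 was 91.7, 83.2 and 68.3 CPM in pro-B-like, small pre-B-like and Ms4a1 B-like cells. The first and the last of these overlapped (62.2 to 103 and 63.1 to 76.2 CPM).

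**Figure D2:**
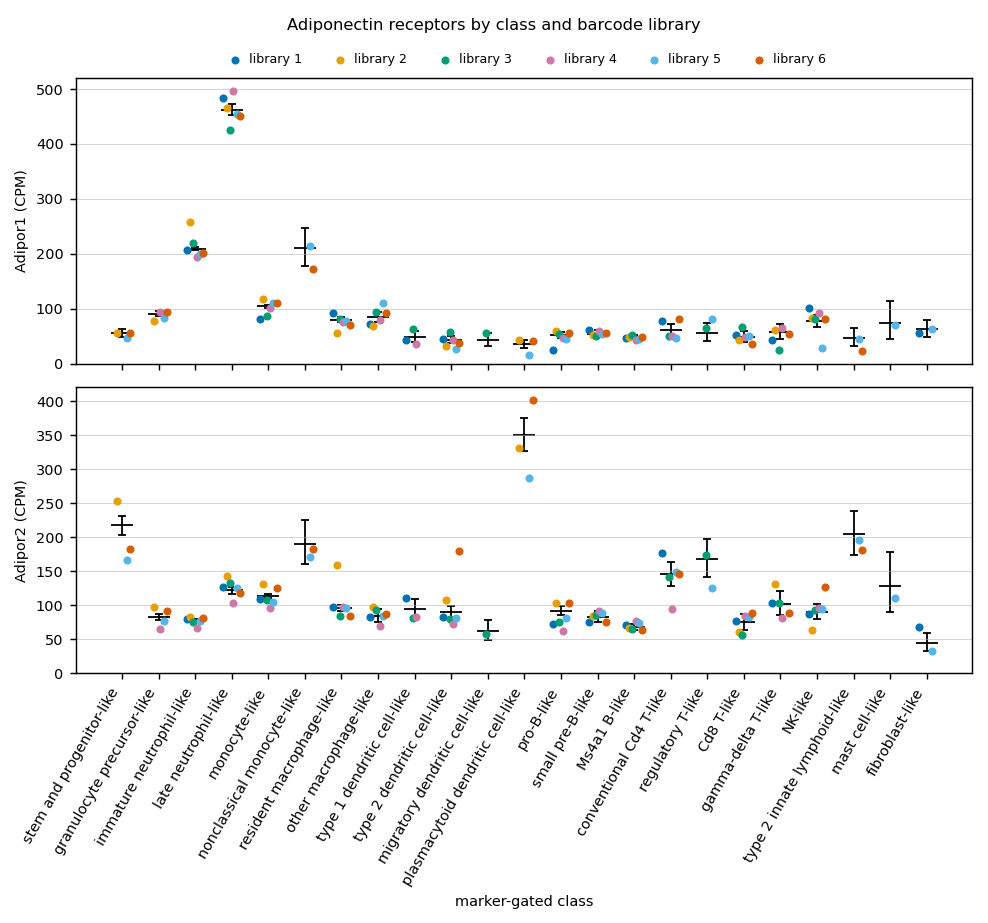
CPM of Adipor1 (top) and Adipor2 (bottom) in the 23 classes. Black dashes are the pooled value with its 95% Poisson interval, and colored points are barcode libraries with at least 20 cells of the class. Adipor1 points of late neutrophil-like cells lie between 425 and 497 CPM, and Adipor2 points of plasmacytoid dendritic cell-like cells between 287 and 402 CPM.

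All 5 members at 10 CPM or more differed between late and immature neutrophil-like cells, the former defined by Cxcr2 or Il1r2 without Ltf and Camp, the latter by Ltf and Camp, genes of secondary granules. Adipor1 was 2.21-fold higher in late cells (463 against 209.6 CPM), Adipor2 1.56-fold (122 against 78.0 CPM), Sphk2 2.17-fold (26.9 against 12.4 CPM) and Sgpl1 2.18-fold (88.5 against 40.6 CPM). S1pr4 was 4.58-fold lower (8.58 against 39.3 CPM). Each held in 6 of 6 libraries without overlap. Of all genes tested, 28.0% were higher and 23.9% lower by this rule, so a difference between these stages was common.

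Late neutrophil-like cells held fewer UMIs (median 4607 against 12282), and CPM is a share of them. Counted per cell, Adipor1 was 2.35 UMIs in late and 3.19 in immature cells, Adipor2 0.619 and 1.19, Sphk2 0.136 and 0.188, and Sgpl1 0.450 and 0.617. These 4 genes thus took a larger share of a smaller pool while their count per cell was lower. S1pr4 was lower on both scales, with 0.0436 against 0.597 UMIs per cell, and in 3.93% against 38.7% of cells (1.57% against 7.38% after thinning). With mixed cells assigned to their closest class, the ranges of Sphk2 and S1pr4 stayed apart, whereas those of Adipor1 (226 to 328 against 192 to 244 CPM), Adipor2 and Sgpl1 overlapped, with late cells still higher in 6 of 6 libraries.

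In granulocyte precursor-like cells, defined by azurophil granule genes such as Elane and Mpo, Adipor1 was 90.8 CPM (77.4, 88.5 and 94.2 CPM, 4 libraries), Sgpl1 22.8 CPM and S1pr4 18.5 CPM. S1pr4 was therefore highest in the middle stage in CPM, while its count per cell was 0.594 in precursors and 0.597 in immature cells. Adipor1 and Sgpl1 were lowest in the precursors on the CPM scale. Precursors were deeper (median 31069 UMIs), and per cell Sgpl1 was instead highest in them, at 0.732 UMIs. Adipor1 was 2.92 UMIs per precursor cell, between late (2.35) and immature cells (3.19). Immature cells with a UMI of the cycling gene Mki67 had 155 CPM of Adipor1 and those without 242 CPM, lower in the former in 6 of 6 libraries, while S1pr4 was 38.4 and 39.8 CPM and was lower in 3 of 6. Cells with Mki67 were deeper (median 24410 against 10747 UMIs), and per cell the direction for Adipor1 turned, with 4.06 against 2.95 UMIs of Adipor1 and 1.01 against 0.486 of S1pr4. This split was chosen after the data had been seen.

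**Figure D3:**
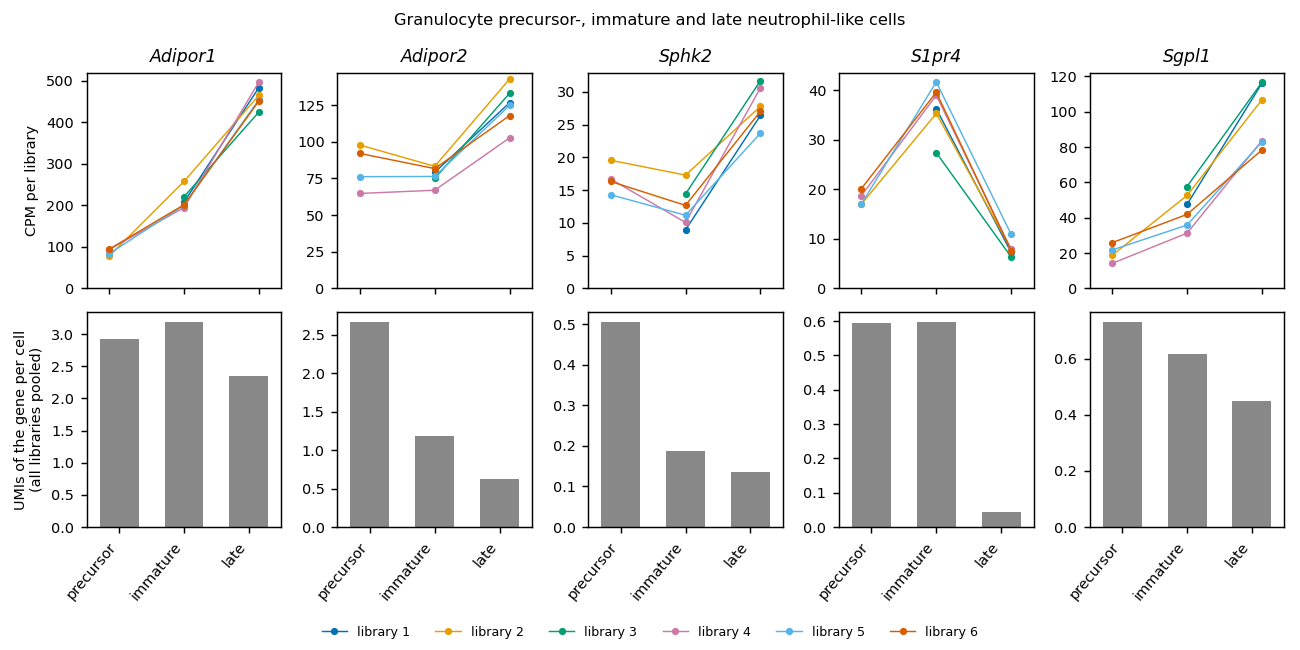
Level of 5 genes in granulocyte precursor-like, immature neutrophil-like and late neutrophil-like cells. The top row gives CPM, with a line for each barcode library, and the bottom row gives UMIs of the gene per cell over all libraries, with axes from 0. Adipor1 rises in CPM to 463 while its count per cell ends at 2.35, and S1pr4 falls on both scales in late cells.

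Other genes of the adiponectin side differed among themselves. Adipoq, which encodes adiponectin, had 47 UMIs in all cells. Cdh13, the T-cadherin that binds adiponectin without signaling through it, was 335 CPM in fibroblast-like cells and at most 12.7 CPM elsewhere. Appl1, the adaptor that links AdipoR1 to its pathways, was lowest in late neutrophil-like cells (14.9 CPM), the class in which Adipor1 was highest, and highest in migratory dendritic cell-like cells (299 CPM). Stk11, the kinase upstream of AMP kinase, and Prkaa1, a catalytic subunit of AMP kinase, were both highest in late neutrophil-like cells (152 and 42.2 CPM). These are shares of a small UMI pool (median 4607 UMIs), not counts per cell. Appl2, a paralog of Appl1, reached 33.0 CPM in resident macrophage-like cells. Ppara had 29 UMIs in all. Ywhaz, the source of PEPITEM, was present in every class, from 224 to 518 CPM, and was 402 CPM in Ms4a1 B-like cells.

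Sphk1 (chromosome 11, 116530925 to 116536674, plus strand), the inducible cytosolic kinase that makes S1P, was scarce in sorted leukocytes, with 1179 UMIs in all cells. The highest of the 23 classes was fibroblast-like cells at 31.8 CPM (interval 21.9 to 44.7), which rests on 33 UMIs in 74 cells. Resident macrophage-like cells followed with 9.60 CPM (2.27, 9.63 and 14.0 CPM) and other macrophage-like cells with 6.67 CPM. Migratory dendritic cell-like (5.46 CPM), type 2 dendritic cell-like (5.12 CPM) and stem and progenitor-like cells (4.39 CPM) came next, before monocyte-like cells with 2.16 CPM. Macrophage-like cells as a whole were above monocyte-like cells in 6 of 6 libraries, with ranges that overlapped (3.80 to 14.1 and 0.797 to 5.51 CPM). Macrophage-like cells with a UMI of a fibroblast gene had 16.5 CPM and those without 7.96 CPM (interval 6.80 to 9.26). This split was chosen after the data had been seen, and the part of fibroblast RNA in the macrophage level was not tested.

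In contrast, Sphk1 was low in granulocytes and lymphocytes. T-like cells had 6 UMIs in 872 cells (0.706 CPM) and NK-like cells none in 274, which allows up to 1.05 CPM (3 counts). Immature neutrophil-like cells had 9 UMIs in 5110 cells (0.116 CPM), late neutrophil-like cells 7 in 3923 cells, and Ms4a1 B-like cells none in 2512 cells, which allows up to 0.193 CPM (3 counts). The share of positive cells was 7.09% in resident macrophage-like cells at a median of 11594 UMIs and 0.137% in immature neutrophil-like cells at a median of 12282 UMIs (1.86% and 0.0202% after thinning). Of all Sphk1 UMIs, 53.2% lay in mixed cells, for example those that met the macrophage genes as well (8.04 CPM in 680 cells with neutrophil and macrophage genes), and 11.4% in cells that met no class. Mixed cells held 43.2% of all UMIs, and cells that met no class were 3.33% of the cells.

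Sphk2 (chromosome 7, 45709467 to 45718002, minus strand), the kinase found in the nucleus and mitochondria, was low throughout and reached 20 CPM in 1 class. It overlaps Dbp and Rpl18 on the other strand. Apart from late neutrophil-like cells (26.9 CPM, 23.7, 27.4 and 31.7 CPM), most myeloid classes lay close together, with resident macrophage-like cells at 18.9 CPM, monocyte-like cells at 18.8 CPM, granulocyte precursor-like cells at 15.7 CPM and immature neutrophil-like cells at 12.4 CPM. Nonclassical monocyte-like cells had 2.80 CPM. Lymphoid classes were lower, from 10.5 CPM in small pre-B-like to 3.51 CPM in Cd8 T-like cells (8 UMIs) and 2.59 CPM in type 2 innate lymphoid-like cells (2 UMIs). All 9 neighboring pairs with at least 4 shared libraries overlapped. Unlike Sphk1, Sphk2 was thus read in neutrophil-like and in B lineage-like cells, although at most 36.7% of a class was positive (granulocyte precursor-like cells, median 31069 UMIs, 2.96% after thinning).

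S1pr1 (chromosome 3, 115710433 to 115715072, minus strand), the Gi-coupled receptor for lymphocyte egress and endothelial barrier function, reached 20 CPM in 10 of 23 classes. It was high in T-like and B lineage-like cells and in 1 type of macrophage, and low in neutrophils, monocytes and dendritic cells. Ms4a1 B-like cells had 179 CPM (interval 172 to 185, 154, 177 and 209 CPM), conventional Cd4 T-like cells 171 CPM (86.8, 158 and 249 CPM), regulatory T-like cells 169.8 CPM and Cd8 T-like cells 142 CPM (75.6, 129 and 252 CPM). Neighbors among these 4 classes overlapped, so no order is read. Gamma-delta T-like cells had 89.6 CPM (34.9, 93.7 and 168 CPM). The share of positive cells was 52.2% in Ms4a1 B-like cells at a median of 5591.5 UMIs and 57.3% in conventional Cd4 T-like cells at a median of 7928 UMIs (27.4% and 29.1% after thinning), against 0.714% in late neutrophil-like cells at 4607 UMIs.

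NK-like cells differed from T-like cells in S1pr1. They had 15.8 CPM (5.63, 13.8 and 24.3 CPM) against 132 CPM in T-like cells (68.1 to 189 CPM), 8.34-fold lower in 6 of 6 libraries without overlap. S1pr1 was the only 1 of 5 members to do so, and 6.89% of all genes were lower by this rule. S1pr5, the S1P receptor that guides NK cells, was 10.5 CPM in NK-like cells and had 2 UMIs in 872 T-like cells (0.235 CPM). In type 2 innate lymphoid-like cells S1pr1 had 5 UMIs in 89 cells (6.47 CPM). T-like and B lineage-like cells overlapped (132 and 115 CPM).

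In the B lineage, the S1pr1 level rose over the 3 stages as defined here. It was 46.3 CPM in pro-B-like cells (29.6, 48.6 and 58.4 CPM), 128 CPM in small pre-B-like cells (85.4, 120.0 and 140.0 CPM) and 179 CPM in Ms4a1 B-like cells, and each step held in 6 of 6 libraries without overlap. Of the members at 10 CPM or more, S1pr1 was the only 1 of 6 to be higher in small pre-B-like than in pro-B-like cells, where 13.6% of all genes were, and the only 1 of 6 to be higher in Ms4a1 B-like than in small pre-B-like cells, where 12.5% were. From pro-B-like to Ms4a1 B-like cells, 2 of 5 members were higher (S1pr1 3.86-fold and Sgpl1 2.04-fold), against 16.7% of all genes. Per cell, Sgpl1 did not rise, with 0.402 UMIs in pro-B-like and 0.398 in Ms4a1 B-like cells. The rise of S1pr1 was smaller per cell, with 0.591, 0.679 and 1.11 UMIs over the 3 stages. Pro-B-like cells were deeper (median 8775 against 5040 and 5591.5 UMIs). Pro-B-like cells with an Mki67 UMI had 27.7 CPM and 0.548 UMIs per cell, and those without (3 of 3 libraries higher) 86.2 CPM and 0.624 UMIs per cell. Small pre-B-like cells were defined without Mki67, whereas pro-B-like cells were not. Pro-B-like cells without it had 62.4 to 123 CPM over 5 libraries, which overlapped with small pre-B-like cells (85.4 to 140.0 CPM). The first step was therefore not free of overlap with Mki67 excluded from both classes. This split was chosen after the data had been seen. Klf2, the transcription factor that drives S1pr1 in lymphocytes, was 366, 1148 and 1059 CPM over the 3 stages. Ms4a1 B-like cells with and without a UMI of Ighd did not differ in S1pr1 beyond their ranges (178 and 179.5 CPM, higher with Ighd in 3 of 6 libraries).

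Resident macrophage-like cells, defined by at least 2 of Lyve1, Cd163, Folr2, Timd4 and Vsig4, expressed S1pr1 at a level that overlapped with small pre-B-like and gamma-delta T-like cells. They had 115 CPM (interval 109.7 to 120.2, 1855 UMIs in 1339 cells) and 86.1, 105 and 134 CPM in the libraries, against 12.8 CPM (0, 6.64 and 29.2 CPM) in other macrophage-like cells, which had none of these genes. The difference was 8.98-fold and held in 6 of 6 libraries without overlap, alone among 5 members, where 12.3% of all genes were higher. The share of positive cells was 56.5% (median 11594 UMIs) against 8.22% (median 10263.5 UMIs), and 18.4% against 2.96% after thinning. Immature neutrophil-like cells, taken as the background, had 1.49% (median 12282 UMIs). Macrophage-like cells (5.71% of all cells) held 18.7% of all S1pr1 UMIs, T-like cells (2.65%) 10.6% and B lineage-like cells (16.9%) 44.5%. These shares also depend on cell number and depth, and the level was higher in T-like than in macrophage-like cells (132 against 86.7 CPM).

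The pooled level followed the number of resident genes. S1pr1 was 12.8 CPM in macrophage-like cells with a UMI of none of the 5 genes, 25.2 CPM with 1, 80.9 CPM with 2, 101 CPM with 3, 124 CPM with 4 and 168 CPM with all 5. Library ranges of neighboring groups overlapped, except those with 1 gene (18.4 to 51.3 CPM) and 2 genes (62.5 to 108 CPM). Groups with 2 or more genes rested on 4 or 5 libraries. Median depth over these groups, from none to all 5 genes, lay between 10263.5 and 13510.5 UMIs. Over the same groups Sgpl1 went from 272 to 384 CPM and was flat from 3 genes on, and Sphk1 showed no order (6.67 and 7.21 CPM at the ends, 14.5 CPM with 2). The split was chosen after the data had been seen. With resident macrophage-like cells restricted to those without a UMI of 9 lymphocyte and endothelial genes (1294 cells), S1pr1 was 114 CPM. With mixed cells assigned to their closest class it was 91.6 against 6.40 CPM, still without overlap.

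**Figure D4:**
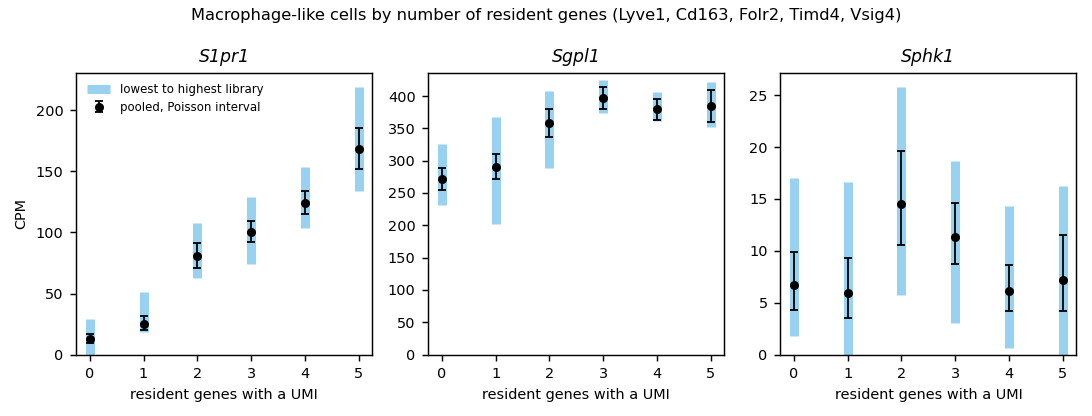
CPM of S1pr1, Sgpl1 and Sphk1 in macrophage-like cells by the number of 5 resident genes with a UMI. Black points are all libraries pooled with the 95% Poisson interval, and blue bars span the lowest to the highest library with at least 20 cells. S1pr1 climbs from 12.8 to 168 CPM, and Sphk1 has no such order.

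Monocyte-like cells had 2.12 CPM of S1pr1 (0.588, 2.17 and 4.95 CPM), so macrophage-like cells stood 41.0-fold higher without overlap. Of 5 members, 2 were higher in macrophages in this way (S1pr1 and Sgpl1) and 0 lower, where 25.8% and 17.0% of all genes were. S1pr4, under 10 CPM in both, was 0.789 against 7.42 CPM. Cells that met the monocyte and the macrophage genes and no others (1198 cells) had 11.9 CPM, close to other macrophage-like cells. Type 1 and type 2 dendritic cell-like and nonclassical monocyte-like cells had no S1pr1 UMI, which allows up to 1.34, 0.667 and 4.20 CPM (3 counts). Stem and progenitor-like cells had 36.3 CPM and fibroblast-like cells 28.0 CPM.

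Among T-like cells, those with a UMI of Cd69, the early activation antigen that pulls S1PR1 off the cell surface, had less S1pr1 transcript. The level was 116 CPM with Cd69 (541 cells, 57.7, 96.9 and 184 CPM) and 163 CPM without (331 cells, 81.7, 179.6 and 237 CPM). It was lower with Cd69 in 6 of 6 libraries, although the ranges overlapped, and the thinned shares were 19.5% and 25.3%. By subset, conventional Cd4 T-like cells had 127 and 268 CPM, whereas Cd8 T-like cells had 148 and 131 CPM with overlapping intervals. These subset values pool all libraries, since no library held 20 cells without Cd69 in either subset, and S1pr1 in T-like cells ranged from 68.1 to 189 CPM between libraries. Klf2 went the other way in T-like cells, with 451 CPM with Cd69 and 273 CPM without (higher with Cd69 in 5 of 6 libraries). S1pr4 was 49.7 CPM with Cd69 and 56.4 CPM without, lower in 5 of 6 libraries. Cells with a Cd69 UMI were deeper (median 8919 against 7818 UMIs), and a cell with a UMI of 1 gene is not a sorted population. Over the classes, Cd69 was highest in gamma-delta T-like cells (416 CPM) and was 2.41 CPM in resident macrophage-like cells. The split by Cd69, too, was chosen after the data had been seen.

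**Figure D5:**
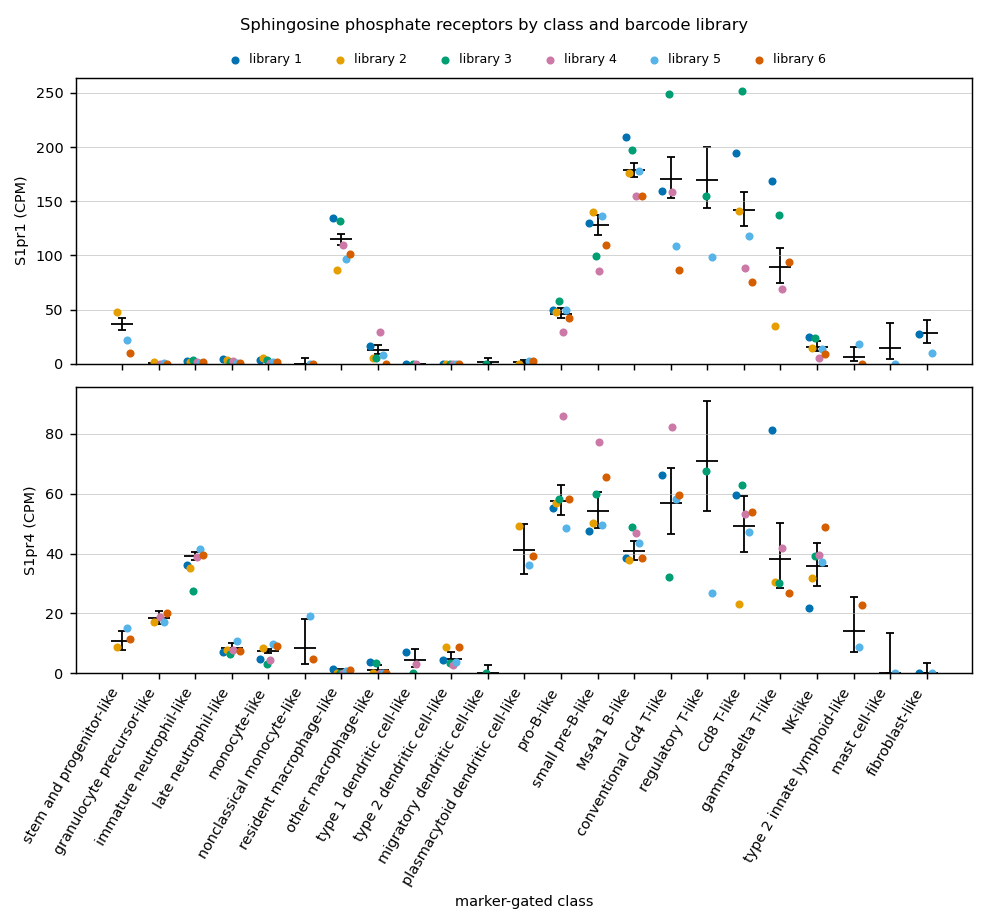
CPM of S1pr1 (top) and S1pr4 (bottom) in the 23 classes. Black dashes are the pooled value with its 95% Poisson interval, and colored points are barcode libraries with at least 20 cells of the class. S1pr1 is 179 CPM in Ms4a1 B-like and 115 CPM in resident macrophage-like cells but 15.8 CPM in NK-like cells, where S1pr4 is 35.8 CPM.

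S1pr4 (chromosome 10, 81497747 to 81500132, minus strand), a receptor largely restricted to blood cells, was shared by lymphocytes and early granulocytes. Regulatory T-like cells had 70.9 CPM (61 UMIs, 26.9 and 67.7 CPM in 2 libraries), pro-B-like cells 57.8 CPM (48.6, 57.5 and 85.9 CPM), conventional Cd4 T-like cells 56.8 CPM (32.2, 59.7 and 82.3 CPM), small pre-B-like cells 54.3 CPM and Cd8 T-like cells 49.2 CPM. The first 10 classes in the order, down to NK-like cells (35.8 CPM, 21.9, 38.2 and 48.9 CPM), overlapped with their neighbors. NK-like cells were then above granulocyte precursor-like cells (18.5 CPM) in 4 of 4 shared libraries without overlap. For this pair the share of all genes was not computed. Per cell the direction turned, with 0.372 UMIs in NK-like cells and 0.594 in the deeper precursors (median 8572 and 31069 UMIs). Pro-B-like cells held the largest share of positive cells (43.7%, 12.6% after thinning).

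The pattern of S1pr4 differed from that of S1pr1. It did not rise over the B lineage, where Ms4a1 B-like cells had 40.9 CPM (38.0, 41.1 and 48.8 CPM) and were below pro-B-like cells in 6 of 6 libraries with ranges that met at their edges (48.6 CPM was the lowest pro-B-like library). It was kept in NK-like cells, which overlapped with T-like cells (35.8 and 52.0 CPM). It was present in plasmacytoid dendritic cell-like cells (41.1 CPM, 36.1, 39.3 and 49.4 CPM), where S1pr1 was 1.26 CPM. And it was close to absent from macrophages, with 12 UMIs in 1339 resident macrophage-like cells (0.743 CPM). Mast cell-like, fibroblast-like and migratory dendritic cell-like cells had no S1pr4 UMI, which allows up to 11.0, 2.89 and 2.34 CPM (3 counts).

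Neutrophil-like cells as a whole exceeded monocyte-like cells in S1pr4 (31.8 against 7.42 CPM) and Adipor1 (271 against 105 CPM), 2 of 5 members, while Sgpl1 was lower (51.8 against 112 CPM). Each held in 6 of 6 libraries without overlap, and of all genes 12.7% were higher and 63.3% lower by this rule. With mixed cells assigned to their closest class, Adipor1 stayed apart, and S1pr4 and Sgpl1 overlapped with the same direction in 6 of 6 libraries.

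The other S1P receptors were low in most classes. S1pr5 reached 20 CPM only in nonclassical monocyte-like cells (85.5 CPM), which lacked S1pr1 and had 8.41 CPM of S1pr4. S1pr3 was highest in mast cell-like (69.8 CPM, interval 42.0 to 109) and fibroblast-like cells (52.1 CPM). S1pr2 did not reach 20 CPM in any class and was 15.4 CPM at most (fibroblast-like cells). Cdh15, the endothelial receptor of PEPITEM, had 15 UMIs in all cells. Ccr7, which brings lymphocytes into lymph nodes, was highest in migratory dendritic cell-like cells (3477 CPM), of which it is a class gene, and next highest in Ms4a1 B-like cells (475 CPM). Gnai2, the G protein subunit through which S1PR1 and S1PR4 signal, was present in every class (246 to 969.9 CPM).

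Sgpl1 (chromosome 10, 61098642 to 61147703, minus strand, overlapping Gm44308 on the same strand), the enzyme that irreversibly cleaves S1P, was highest in mast cell-like and macrophage-like cells. It reached 20 CPM in every class. Mast cell-like cells had 555 CPM (interval 469.9 to 651), resting on 151 UMIs in 83 shallow cells (median 2547 UMIs) and 1 library with 20 cells. A further 61 cells that met the mast cell and the basophil genes had 479 CPM. Resident macrophage-like cells had 382 CPM (249, 385 and 396 CPM) and other macrophage-like cells 272 CPM (232, 261 and 326 CPM), higher in the former in 6 of 6 libraries with ranges that overlapped. Of resident macrophage-like cells 88.4% were positive, and 49.2% after thinning. Migratory dendritic cell-like cells had 199 CPM, and type 2 dendritic cell-like cells 113 CPM.

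Macrophage-like cells were 3.15-fold above monocyte-like cells (352 against 112 CPM, with library ranges of 264 to 378 and 90.6 to 152 CPM). Cells that met the monocyte and the macrophage genes lay between, at 245 CPM. T-like cells had 39.5 CPM and B lineage-like cells 46.1 CPM, and the lowest class was granulocyte precursor-like cells (22.8 CPM). Resident and other macrophage-like cells, both high in Sgpl1, had 0.743 and 1.11 CPM of S1pr4. Among the 23 classes with at least 50 cells, only resident macrophage-like cells had S1pr1 and Sgpl1 both above 100 CPM. The 6 endothelial-like cells, too few for this list, had 220 CPM of S1pr1 (17 UMIs) and 142 CPM of Sgpl1 (11 UMIs).

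Of the other genes of S1P supply, removal and export, Sgpp1, Asah1 and Abcc1 were highest in resident macrophage-like cells, and the rest were highest elsewhere. Sgpp1, a phosphatase that returns S1P to sphingosine, was 103 CPM there and at most 41.8 CPM elsewhere, Asah1, the acid ceramidase that frees sphingosine, 231 CPM (other macrophage-like cells 178 CPM), and Abcc1, a transporter that can export S1P, 181 CPM. Acer3, a ceramidase of the endoplasmic reticulum and Golgi, was highest in nonclassical monocyte-like cells (495 CPM), while the ceramidases Acer2 and Asah2 were highest in type 2 innate lymphoid-like (31.1 CPM) and pro-B-like cells (21.5 CPM). Fibroblast-like cells had the most Plpp3 and Plpp1, phosphatases that remove the phosphate of S1P at the cell surface (1797 and 115 CPM). Among the 23 classes, the exporters Spns2 and Mfsd2b were highest in stem and progenitor-like cells (75.3 and 60.3 CPM), and Spns2 was next highest in Ms4a1 B-like cells (21.6 CPM). Sgpp2 (24 UMIs) and Apom (41 UMIs), a carrier of S1P in plasma made by the liver, were nearly absent. Of the 29 genes of this list, 5 reached 20 CPM in every class (Stk11, Ywhaz, Acer3, Klf2 and Gnai2), 18 in some classes and 6 in none.

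Across 49 points, each 1 class in 1 library with at least 50 cells (13 classes), the genes whose log2(CPM + 1) was most like that of Adipor1 were Grina, Stx11 and Spatc1 (Pearson r = 0.962, 0.943 and 0.942), among 11242 genes at 10 CPM or more. For Adipor2 they were Pnck, Adamts17 and Abhd15 (0.754, 0.745 and 0.721). Those of Sphk1 were Mamld1, Phldb1 and Spire1 (0.916, 0.914 and 0.910), and those of Sphk2 were C5ar2, Lamp2 and Tcn2 (0.818, 0.778 and 0.766). S1pr1 was most like Serinc3, Nuak1 and Tgfbr2 (0.922, 0.920 and 0.909), S1pr4 like Cyfip2, Traf3ip3 and Ccdc88c (0.926, 0.925 and 0.917), and Sgpl1 like Rab1a, Klf6 and Gpr137b (0.932, 0.927 and 0.922). None of these 21 genes defined a class. Between the members, the values ran from -0.84 (Sphk1 and S1pr4, and likewise S1pr4 and Sgpl1) to 0.73 (Sphk1 and Sgpl1), with 0.14 for the adiponectin receptors, 0.18 for the S1P receptors and 0.16 for the kinases. No library held 50 cells of a T cell subset or of mast cell-like, fibroblast-like or nonclassical monocyte-like cells. These classes, among others, therefore gave no point. The values for S1pr4, Sphk1 and Sgpl1 thus leave out the class in which each was highest, and those for S1pr1 leave out the T cell subsets. The points share libraries and classes, so these values are descriptions.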

How the data were processed

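Single-cell RNA-seq libraries (Chromium 3′ chemistry) were made from 6 samples, 2 PBS and 4 PEPITEM. Per the paper's methods and the submitters' processing notes, the authors aligned reads to mm10 with Cell Ranger 7 and deposited UMI counts of all cells as 1 pooled matrix with its gene and barcode lists. Their methods also state removal of ambient RNA (SoupX) and of doublets (DoubletFinder) and filters in Seurat on mitochondrial share and genes per cell. The deposited cells held 501 to 6998 genes and at most 9.99% mitochondrial UMIs. Ambient correction lowers counts of genes abundant in free RNA, so low levels may be underestimated. Of the entries, 1724738 were stored zeros and were read as no UMI. No further filter, doublet caller or normalization was applied here, and cells that met several classes were left out. CPM, exact Poisson and Wilson 95% intervals, and expected shares at 2000 UMIs (cells below this depth left out) were computed in Python 3.11.15 with NumPy 2.4.6, SciPy 1.17.1 and pandas 2.3.3, and figures were drawn with Matplotlib 3.10.9. The rule that counts genes with ranges that do not overlap was run on simulated data with 4-fold differences and 10% spread between libraries. Smaller differences and wider spreads were not simulated. Members, companion genes and class markers were chosen with earlier results of these data known. Genes named were the 7 members, 29 companion genes on the route, and the 3 genes most like each member, and some results on companion genes and cells without a class are not reported here. A class was compared with another over libraries with at least 20 cells of both. A pair was set beside all genes only with at least 4 such libraries and for genes at 10 CPM or more in either class. Values over fewer libraries or below this level are given as descriptions. Libraries are not replicates of a treatment, so the planned test of PBS against PEPITEM was not run. Coordinates are from GENCODE M21 (GRCm38). Reads of overlapping genes could not be separated here. Alternatives were other numbers of class genes, mixed cells kept, other weightings of cells and libraries, other depths, and each library left out.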

Additional observations from a re-analysis of the deposited data

How the results depend on the processing

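Over 91 settings, the level of a member in its highest class stayed within its 95% interval in 82, and the class stayed the highest in 78. With 1 more class gene, Adipor1 in late neutrophil-like cells was 429 CPM, with mixed cells kept 308 CPM and as the mean of single cells 487 CPM. Adipor2 in plasmacytoid dendritic cell-like cells was 396 CPM with 1 fewer class gene, where only 34 such cells remained and type 2 innate lymphoid-like cells were highest, and it was 320.2 CPM with each class without its largest library, a setting added after the data had been seen. Sphk2 in late neutrophil-like cells was 22.9 CPM with mixed cells kept. S1pr1 in Ms4a1 B-like cells was 187 CPM as the mean of single cells, and S1pr4 in regulatory T-like cells was 47.3 CPM as the median over libraries, where conventional Cd4 T-like cells were highest in both. S1pr1 kept its highest class in 7 of 13 settings. With each barcode library left out in turn, the level was 456 to 468 CPM for Adipor1, 320.2 (without library 6) to 364 CPM for Adipor2, 29.5 to 37.5 CPM for Sphk1, 26.1 to 28.2 CPM for Sphk2, 173 to 183 CPM for S1pr1, 58.6 to 77.5 CPM for S1pr4 and 474 to 602 CPM for Sgpl1. The cause of these moves was not tested. Leaving out cells whose barcode sequence occurred in another library, also added later, kept all 7 levels within their intervals. After thinning to 2000 UMIs, the class with the largest share of positive cells changed for Adipor1, Adipor2, Sphk2 and Sgpl1. Of 52 class pair and member values, 18 had ranges that did not overlap, of which 13 still did not with mixed cells kept, 5 overlapped and 0 reversed. Among all genes, the share with ranges apart in 1 direction ran from 3.54% to 63.3% between the pairs. The count of 18 is therefore not read as a result about the members. No paired analysis was possible because no source used here ties a barcode library to a sample.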

Other observations

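S1pr1 varied between the barcode libraries, whose treatment is not known here. In T-like cells it was 162, 154, 189, 109, 87.1 and 68.1 CPM in libraries 1 to 6. In B lineage-like cells it was 154, 119, 139, 97.6, 106 and 89.6 CPM, and in resident macrophage-like cells 134, 86.1, 132, 109, 97.1 and 101 CPM. Libraries 1 and 3 were the highest in each of these classes, and library 6 was the lowest in T-like and B lineage-like cells. No relation was computed over these values.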
